A study of Mus musculus with 12 samples.

Results

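Loss of Tet1 alone was compared with wild type (WT) in mouse embryonic stem cells (ESCs), CpG by CpG. The members are all 5571 CpGs that the authors listed as differing between 3 Tet1 knockout (KO) clones and 3 WT clones, out of 31671 entries in 5 such lists. The same WT clones served as control in lists for 2 Tet2 KO clones, 2 clones that lack Tet1 and Tet2 (DKO) and 2 clones that lack Tet1, Tet2 and Tet3 (TKO), and a further list set Tet2 KO against Tet1 KO. All clones came from a single parental clone of a 129 derived ESC line with a GFP reporter at the Oct4 gene. Both the KO and the WT clones therefore carried the reporter. The KO clones carried indels made with CRISPR/Cas9. Cells were undifferentiated and grew without feeders on gelatin, with serum and LIF. The assay was reduced representation bisulfite sequencing (RRBS), which reads short restriction fragments after bisulfite conversion.

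Tet1 oxidises 5-methylcytosine to 5-hydroxymethylcytosine and further forms, a step toward unmethylated cytosine. It is the main Tet enzyme of ESCs together with Tet2, and its CXXC domain is known for binding CpG-rich DNA. Dnmt enzymes add methyl groups, so the level at a CpG reflects both activities. Bisulfite treatment does not separate 5-hydroxymethylcytosine from 5-methylcytosine, and both are called methylation below.

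Each value is 1 difference per CpG, Tet1 KO minus WT, in percentage points of methylation, with the 3 clones of each genotype combined. A CpG was listed by the authors at 25 points or more, a q-value under 0.05 and 10 reads or more. No level, read depth or value of a single clone was analysed here. The spread between clones is therefore unknown, no test over clones could be made, and a difference between genotypes and one between these clones cannot be told apart. The intervals given for shares are exact 95% intervals that cover only the counting of CpGs, which are not replicates. The CpGs tested but not listed are unknown, so all shares are shares of the list.

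The sequences of the sites on which the account turns are shown first. All are from the forward strand of NCBIM37 (mm9), with the listed CpGs in capitals and 30 bases on either side. The first is the guide target in Tet1, printed 5′ to 3′ on its own strand with the PAM in capitals. It lies on the minus strand at chr10:62296296-62296315, in coding sequence of Tet1.
Tet1 guide target: ggctgctgtcagggagctcaTGG

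No listed CpG had Tet1 as its nearest gene, and the nearest listed CpG was 518110 bp from the guide target. The list therefore holds no measurement at the edited sequence. The next pair holds the CpGs with the largest gain and the largest loss of the list. The first is in intron 1 of Aqp11 at chr7:104885628-104885701, and the second is intergenic at chr9:46220058-46220119, with 4931429L15Rik as the nearest gene.
Aqp11: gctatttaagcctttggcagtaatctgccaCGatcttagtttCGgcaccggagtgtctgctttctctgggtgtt
4931429L15Rik: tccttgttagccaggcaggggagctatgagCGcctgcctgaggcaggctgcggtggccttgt

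The promoter sites below had large differences within 500 bp of a transcription start site (TSS). Acat3 (chr17:13133403-13133504), Slu7 (chr11:43246925-43246986) and Adcyap1 (chr17:93598239-93598300) were higher and Rapgef4 (chr2:71892285-71892346) was lower in Tet1 KO.
Acat3: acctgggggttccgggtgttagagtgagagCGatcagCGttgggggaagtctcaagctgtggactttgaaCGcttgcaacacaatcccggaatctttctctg
Slu7: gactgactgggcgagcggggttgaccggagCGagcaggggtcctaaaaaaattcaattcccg
Adcyap1: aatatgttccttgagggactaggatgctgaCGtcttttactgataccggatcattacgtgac
Rapgef4: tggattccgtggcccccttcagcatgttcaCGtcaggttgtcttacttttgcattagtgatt

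The last set shows how listed CpGs sat beside each other. The clusters near 4930515B02Rik (chr4:140425116-140425191) and in the last exon of Prickle1 (chr15:93331061-93331139) were higher at every listed CpG shown. In intron 1 of Lrpprc (chr17:85187926-85188007), at the start of exon 2 of Lypd3 (chr7:25422109-25422178) and in the exon of Magel2 (chr7:69522606-69522706), CpGs of opposite sign lay close together.
4930515B02Rik: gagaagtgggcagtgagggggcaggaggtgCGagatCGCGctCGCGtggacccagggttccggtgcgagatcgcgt
Prickle1: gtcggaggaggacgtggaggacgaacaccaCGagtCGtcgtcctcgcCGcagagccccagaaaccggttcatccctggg
Lrpprc: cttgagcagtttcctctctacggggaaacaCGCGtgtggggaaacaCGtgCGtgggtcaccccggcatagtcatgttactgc
Lypd3: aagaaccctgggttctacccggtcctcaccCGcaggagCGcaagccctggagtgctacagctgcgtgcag
Magel2: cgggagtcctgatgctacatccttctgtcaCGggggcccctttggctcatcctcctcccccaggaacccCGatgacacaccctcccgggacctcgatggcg

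Methylation was higher in Tet1 KO at 3655 listed CpGs and lower at 1916, so that 65.6% of the list was higher (interval 64.3 to 66.9%). This share is the background against which each group below is read. Merging CpGs within 1000 bp of the next gave 5093 regions, of which 65.0% were higher. The median gain was 34.0 points and the median loss was -32.3 points. The smallest differences listed were 25.0033 points among gains and -25.0107 points among losses, just inside the authors' limit. The share that was higher was 61.2% among 1916 CpGs that differed by 25 to 30 points, 66.3% among 2133 at 30 to 40, 68.7% among 939 at 40 to 50, 70.8% among 366 at 50 to 60, 78.0% among 150 at 60 to 70 and 68.7% among 67 at 70 points or more. The share was thus lowest among the smallest differences and highest at 60 to 70 points. Of the gains 422 reached 50 points, against 161 of the losses.

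The extremes of the list were single sites far from one another. The largest gain, 92.1 points, was at Aqp11, which encodes an aquaporin of intracellular membranes. It lay 1087 bp downstream of the TSS, beside a second CpG 12 bp away with 39.4 points. A gain of 91.1 points had Foxk1 as its nearest gene at -446879 bp, but it lay in intron 9 of Sdk1, a cell adhesion gene of neurons. The next gains were near Lif (87.0 points, 36607 bp downstream), the cytokine of the culture medium, Tfec (86.8 points), a transcription factor gene of the Mitf family, and Mefv (86.7 points), which encodes pyrin. The largest losses were near 4931429L15Rik (-87.3 points), in intron 3 of Dapp1 (-86.5 points), a phosphoinositide-binding adaptor, in exon 16 of Prrc2a (-86.1 points), in intron 1 of Gadl1 (-84.9 points), a decarboxylase gene, and in intron 1 of the formin gene Fmnl3 (-82.5 points). Of these 10 sites only Aqp11 and Fmnl3 (1991 bp) were within 2000 bp of a TSS.

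Listed CpGs were mostly distal, and the share of gains was highest next to TSSs. The median distance to the nearest TSS was 20382 bp, with 19891 bp for gained and 21275.5 bp for lost CpGs. Within 100 bp of a TSS 41 of 54 CpGs were higher in Tet1 KO (75.9%, interval 62.4 to 86.5%), and at 100 to 500 bp 131 of 171 were (76.6%, interval 69.5 to 82.7%). At 500 to 2000 bp 298 of 422 were higher (70.6%). Farther away the share was 64.5% up to 10000 bp, 65.3% up to 50000 bp, 62.6% up to 200000 bp and 68.9% beyond that. The side of the TSS made little difference. Within 500 bp 76.3% of 97 upstream and 76.6% of 128 downstream CpGs were higher, and over the whole list 64.8% of upstream and 66.1% of downstream CpGs were.

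**Figure D1:**
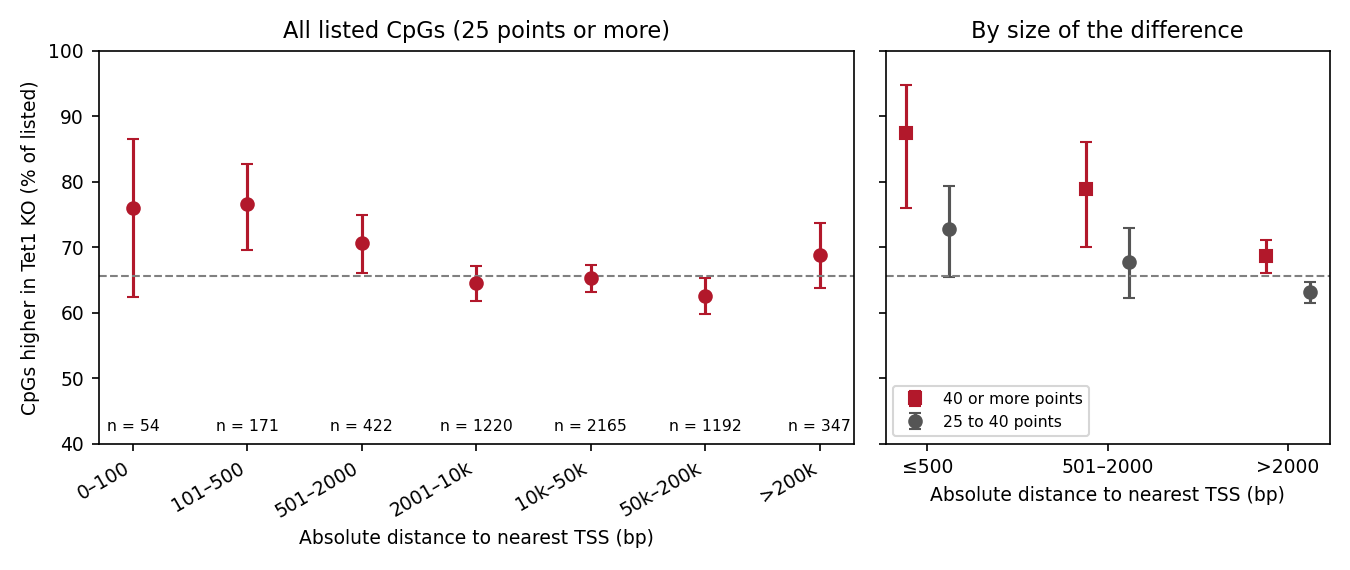
Share of listed CpGs higher in Tet1 KO (percent, y axis) by absolute distance to the nearest TSS (bp, x axis), for all listed CpGs at left and split by the size of the difference at right. Points are shares, bars are exact 95% intervals over CpGs and the dashed line is the whole list at 65.6%. At 40 points or more 87.5% of the CpGs within 500 bp were higher.

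The share of gains was higher among large differences than among smaller ones in each of 3 classes of distance. Within 500 bp of a TSS 49 of the 56 CpGs that differed by 40 points or more were higher (87.5%, interval 75.9 to 94.8%), against 72.8% of the 169 with smaller differences. At 500 to 2000 bp the share was 78.9% of 109 large and 67.7% of 313 smaller differences. Beyond 2000 bp it was 68.7% of 1357 large and 63.2% of 3567 smaller differences. Large differences themselves were not more frequent near TSSs, with 56 of 225 CpGs within 500 bp, 109 of 422 at 500 to 2000 bp and 1357 of 4924 beyond. The median gain was 31.9 points within 500 bp and 34.1 points beyond 2000 bp. Levels in Tet1 KO and WT were not analysed, and their part in these shares was not tested.

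**Figure D2:**
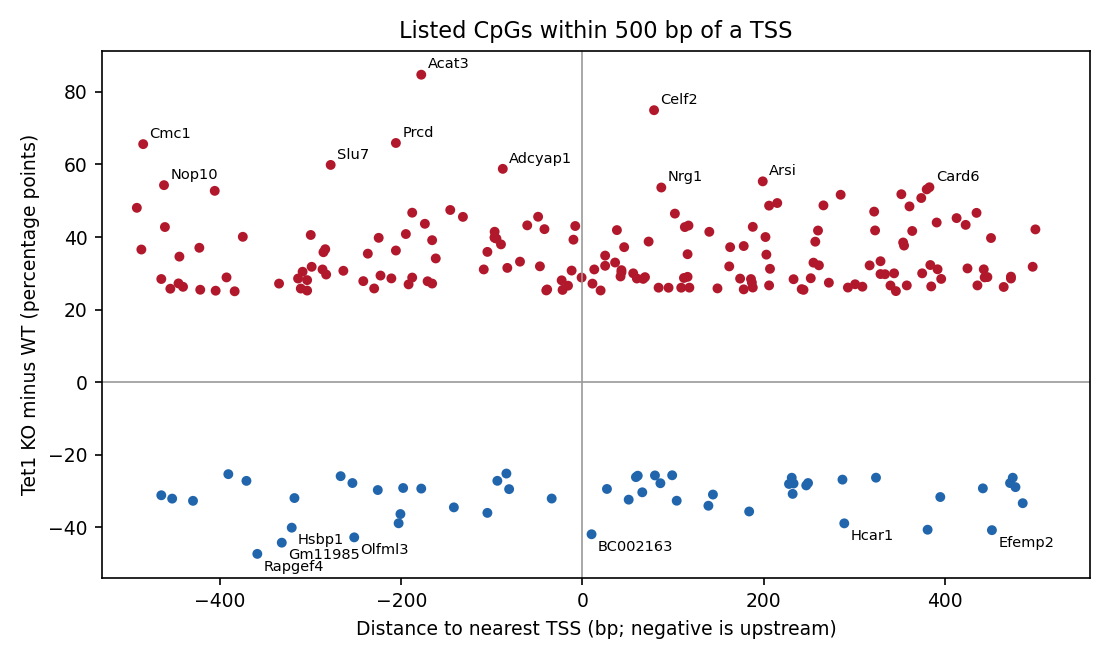
Difference in methylation, Tet1 KO minus WT (percentage points, y axis), of the 225 listed CpGs within 500 bp of a TSS by their distance to it (bp, x axis, negative upstream). Each point is 1 CpG, red where higher and blue where lower in Tet1 KO, and named points are those with the largest differences. Gains reached 84.7 points at Acat3 and losses -47.3 points at Rapgef4.

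Within 500 bp of a TSS 195 genes had a listed CpG, and 172 of the 225 CpGs were higher in Tet1 KO. The largest gain was at Acat3, a thiolase gene, whose 3 promoter CpGs had 27.8, 84.7 and 28.6 points at 171, 178 and 211 bp upstream. The site with the largest value thus lay 7 bp from one with a much smaller value. Celf2, which encodes an RNA-binding regulator of splicing, had 74.9 points at 79 bp, and Prcd, a gene of photoreceptor discs, had 65.9 points at -206 bp. Cmc1, a factor of cytochrome oxidase assembly in mitochondria, had 65.6 points at -485 bp and 48.1 points at -492 bp. Slu7, a factor of the second step of splicing, had 59.9 points at -278 bp. Adcyap1, which encodes the neuropeptide PACAP, had 58.8 points at -88 bp. Nop10, a component of H/ACA ribonucleoproteins, had 54.3 points at -462 bp, and Nrg1, a ligand of ErbB receptors, had 53.6 points at 87 bp. Card6 had 53.7 and 53.1 points at 383 and 380 bp in its second exon.

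Further gains next to TSSs are given as examples, which were picked after their values were seen. Myod1, the muscle determination factor, had 49.4 points at 215 bp, Scrt1, a neuronal repressor, had 48.4 points at 361 bp, and Ptpn6, the phosphatase SHP-1 of blood cells, had 50.7 points at 374 bp. Cabp1, a neuronal calcium-binding protein gene, had 39.6, 39.9 and 35.9 points at -95, -97 and -105 bp.

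Losses next to TSSs were fewer and smaller. The largest was at Rapgef4, which encodes the cAMP-activated exchange factor Epac2 (-47.3 points at -359 bp). Olfml3, a secreted olfactomedin-like protein gene, had -42.7 points at -252 bp, and Efemp2, the elastic fibre protein fibulin 4, had -40.8 points at 452 bp. Hsbp1, a binding protein of heat shock factor, had -40.1 points at -321 bp. Hcar1, the lactate receptor gene, had -38.9 points at 289 bp and 26.7 points at 358 bp, both in its 5′ UTR. Losses were also listed at Gm11985 (-44.2 points), BC002163 (-41.9 points) and 4932702P03Rik (-40.6 points). Further losses, given as examples, were at Mamstr, a coactivator of the muscle factor Mef2 (-34.5 points at -142 bp), and the calcium-sensing receptor gene Casr (-33.3 points at 486 bp). Another was at the milk protein gene Csn3 (-32.1 points at -34 bp). These examples are not the next in size, since Ldhd had -38.9 points at -203 bp and Map10 -36.3 points at -201 bp. The 4932702P03Rik CpG was also in the Tet2 KO list, with 44.7 points against the same WT clones.

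By annotation, promoters and exons held the highest shares of gains. HOMER called 204 CpGs promoter-TSS, and 155 of them were higher (76.0%, interval 69.5 to 81.7%). In exons 506 of 717 were higher (70.6%, interval 67.1 to 73.9%), in introns 63.9% of 2109 and in intergenic sequence 64.8% of 2299. The 3′ UTRs (64.8% of 91), 5′ UTRs (64.3% of 28) and transcript ends (65.7% of 99) stood near the background. The 43 CpGs that the detailed annotation placed in CpG islands were higher in 60.5%, or 26 of 43. Within 500 bp of a TSS this label was given to intronic CpGs only, and to no promoter-TSS, exon or 5′ UTR CpG. It may therefore leave out islands in promoters and exons, and the share does not stand for all islands.

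Exon 1 held 54 of the exonic CpGs, of which 79.6% were higher (interval 66.5 to 89.4%). Internal exons held 516 with 69.4% (interval 65.2 to 73.3%) and last exons 147 with 71.4% (interval 63.4 to 78.6%), and both of these intervals contain 65.6%. At 40 points or more 183 of 225 exonic CpGs were higher (81.3%, interval 75.6 to 86.2%), and 80.1% of the 191 that lay beyond 2000 bp from a TSS. Introns (67.2% of 536, interval 63.0 to 71.1%) and intergenic sequence (66.8% of 642, interval 63.0 to 70.5%) stood lower at that size. These CpGs are not replicates, and the difference between the classes was not tested. Among introns, the second had the lowest share (57.6% of 328), against 65.8% of 717 in first introns and 64.6% of 1064 in later ones.

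The largest exonic gains were in Lmtk3, a kinase gene (81.5 points, exon 6 of 16), and Noxred1 (73.5 points, exon 4 of 8). In exon 6 of Etv6, an Ets transcription factor gene, a CpG had 69.7 points, with Bcl2l14 as its nearest TSS. T, the mesoderm factor brachyury, had 67.7 points in exon 6 of 8, 4325 bp downstream of its TSS, and this CpG was in none of the other lists against WT. The CpG lies at chr17:8631583-8631644 in coding sequence and is shown here because T marks the first mesoderm.
T: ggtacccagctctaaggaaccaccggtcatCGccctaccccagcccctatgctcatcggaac

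Myd88, the adaptor of Toll-like receptors, had 66.4 points in exon 3 of 6. The largest exonic losses were those of Prrc2a (-86.1 points), Csf2ra, a subunit of the GM-CSF receptor (-71.7 points), exon 17 of Git2, a GTPase-activating protein gene (-71.4 points, nearest TSS Mir7028), exon 3 of Kank4 (-67.8 points, nearest TSS Kank4os), Wsb1 (-55.4 points) and Abcb4, a phospholipid transporter gene (-55.4 points). The exonic losses of 40 points or more numbered 42.

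The detailed annotation gave a repeat name to 1203 of the listed CpGs (21.6%), of which 62.4% were higher, against 66.5% of 4368 without one. The repeat CpGs named in this account were all intronic or intergenic, classes with 63.9% and 64.8% higher. Promoters (76.0%) and exons (70.6%) stood higher, and the part of annotation class in this contrast was not tested. LTR elements had 68.3% of 394, LINEs 58.0% of 317 and SINEs 59.7% of 437. Inside the L1 family, the autonomous retrotransposons of the mouse, subfamilies went different ways. L1Md_T had 19 CpGs higher and 33 lower (36.5%, interval 23.6 to 51.0%) in 50 regions, and L1Md_A had 10 higher and 15 lower. L1Md_F2 had 39 higher and 15 lower (72.2%, interval 58.4 to 83.5%) in 49 regions, and all other L1 names together 61.7% of 162, among them L1Md_F and L1Md_F3 with 7 of 14 each. L1Md_T and L1Md_A CpGs lay on 18 chromosomes and L1Md_F2 CpGs on 15. Copies of these young elements are nearly identical, and reads from them can be placed at the wrong copy. These values are uncertain for that reason, and the subfamilies were singled out after their values were seen.

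The lists of the other knockouts gave other values for the same subfamilies. In L1Md_T 36.5% of 52 CpGs were higher in Tet1 KO, 64.7% of 51 in Tet2 KO and 49.0% of 49 in TKO, each against the same WT clones. In L1Md_F2 72.2% of 54 were higher in Tet1 KO, 67.3% of 52 in Tet2 KO and 32.1% of 78 in TKO. The shares of the whole lists were 65.6% in Tet1 KO, 77.7% in Tet2 KO and 58.6% in TKO. The DKO list is left out here because its gene and repeat columns do not match the coordinates of their rows.

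Of the other repeats, the Alu family, the B1 elements of the mouse, had 56.7% of 178 higher (interval 49.1 to 64.1%). Within it B1_Mm was higher at 19 of 41 (46.3%, interval 30.7 to 62.6%) and B1_Mus1 at 27 of 36. The intervals of Alu and B1_Mm lie below 65.6%, and those of B1_Mus1 and of the repeats that follow contain it. Endogenous retroviruses of the ERVK class had 69.5% of 233 higher, ERV1 69.8% of 53 and MaLR 61.9% of 84. MMETn-int, the internal part of ETn-like elements, was higher at 14 of 17 CpGs, the long terminal repeat RLTR17 at 13 of 15 and IAP elements at 18 of 29.

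**Figure D3:**
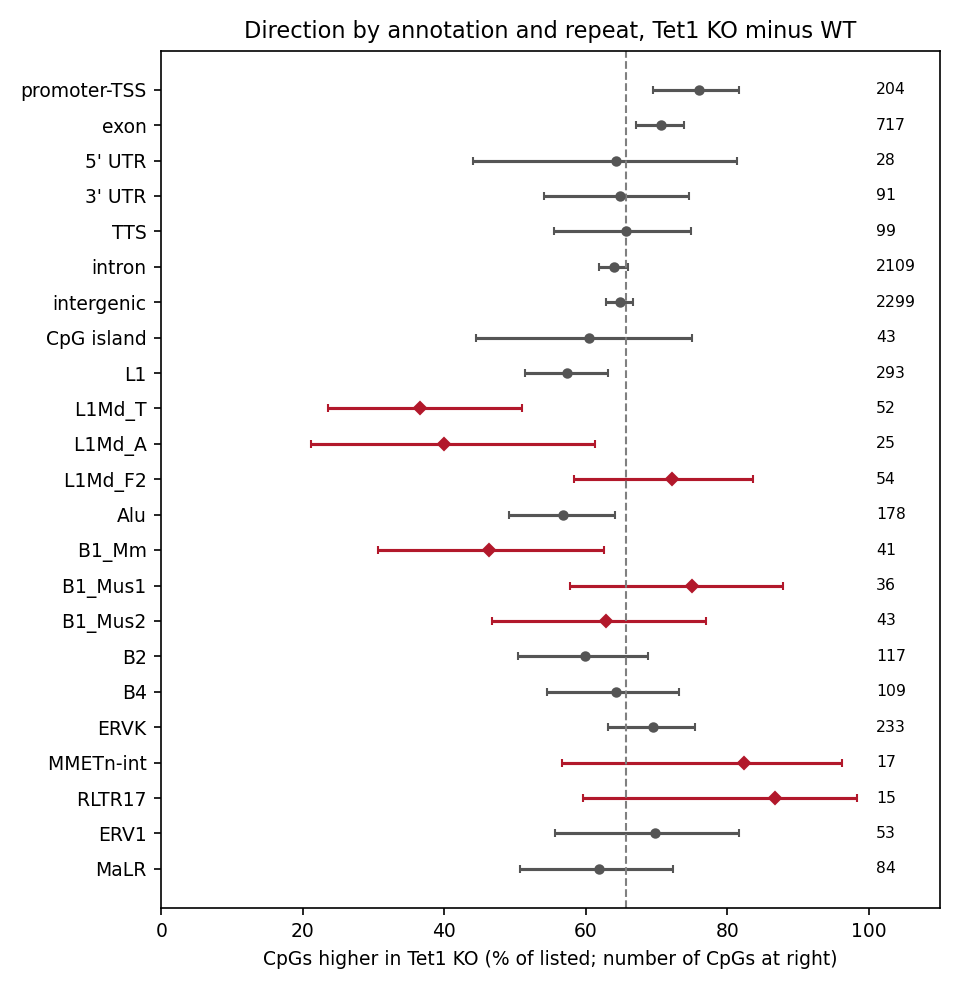
Share of listed CpGs higher in Tet1 KO (percent, x axis) by annotation class and repeat (rows, number of CpGs at right). Gray circles are classes and families and red diamonds single repeat names, bars are exact 95% intervals over CpGs and the dashed line is the whole list at 65.6%. L1Md_T stands at 36.5% and L1Md_F2 at 72.2%.

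Sequence context hardly separated gained from lost CpGs. All 5563 listed positions on assembled chromosomes were CpGs of NCBIM37, and 98.1% lay within 44 bases of CCGG, the site that MspI cuts in RRBS. The ratio of observed to expected CpGs in the 200 bp around the site had a median of 0.446 at gained and 0.439 at lost CpGs. At all genomic CpGs within 44 bases of CCGG the median was 0.452. The upper quartile was 0.572 over the list and 0.690 over these genomic CpGs. For the number of CpGs in the 200 bp it was 7 and 12, so CpG-dense sequence had a smaller part in the list. The genomic set also holds CpGs in CCGG itself and sites that may not have been tested. The share that was higher ran between 63.8 and 70.3% over 5 classes of the ratio of observed to expected CpGs. Over the bases next to the CpG it ran between 62.7 and 69.4%, leaving out CCGG itself, which held 2 listed CpGs. CpGs in CCGG made up 41.1% of the genomic CpGs within 44 bases of such a site. The authors clipped the first 6 bases of reads, where a cut CCGG lies.

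Neighbouring CpGs tended to have the same sign over short distances only. Of 276 neighbours 1 to 20 bp apart 259 had the same sign (93.8%), of 116 at 21 to 100 bp 73.3%, of 86 up to 1000 bp 65.1%, of 246 up to 10000 bp 57.3% and of 1479 up to 100000 bp 54.0%. The shares of gains and losses alone give 54.9%. CpGs 1 to 20 bp apart differed from each other by a median of 8.38 points, and can lie on the same reads, so they are not separate observations. Most regions were single CpGs (4665 of 5093). Of the 428 with 2 or more, 264 were higher throughout, 87 lower throughout and 77 of both signs.

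**Figure D4:**
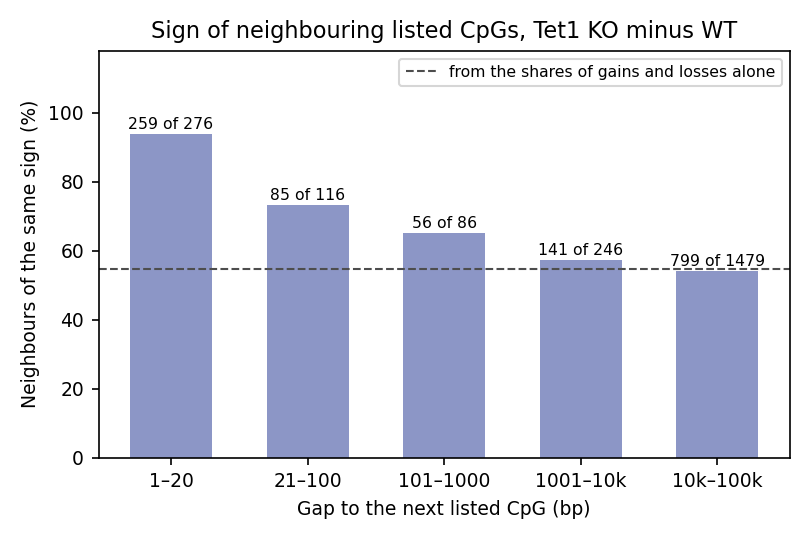
Share of neighbouring listed CpGs with the same sign of Tet1 KO minus WT (percent, y axis) by the gap between them (bp, x axis). Numbers above the bars are neighbours of the same sign out of all neighbours, and the dashed line is the 54.9% that the shares of gains and losses alone give. The bars run between 93.8 and 54.0%.

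The densest cluster that was higher throughout lay 3448 to 3462 bp upstream of 4930515B02Rik. Its 5 CpGs within 15 bp had 64.4, 69.4, 61.5, 42.8 and 48.2 points. In the last exon of Prickle1, a planar cell polarity gene, 4 CpGs had 26.3, 52.9, 46.7 and 27.1 points. At Rerg, a Ras-like gene, 3 CpGs in an RLTR41 element had 25.2, 64.1 and 73.3 points, the last pair 3 bp apart.

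Opposite signs within 20 bp occurred at 17 pairs. In intron 1 of Lrpprc, a mitochondrial mRNA-binding protein gene, CpGs with 25.1, 39.9 and 46.4 points were followed after 4 bp by one with -25.7 points, and another CpG 346 bp further had 31.8 points. At Lypd3 the values were 30.2 and -33.3 points 8 bp apart, and at Phldb3 -30.8 and 25.6 points 10 bp apart. Near Mir3109 they were -46.3 and 56.4 points 14 bp apart, and near Tdrd3 -67.9 and 27.2 points 7 bp apart. At Magel2, an imprinted gene of 1 exon, CpGs 39 bp apart had 51.9 and -54.7 points.

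The 5571 CpGs named 4045 nearest genes. Of these 3001 had 1 listed CpG and 36 had 5 or more, up to 8 for 4932435O22Rik, Slc4a3 and Spock1. Among the 1044 genes with 2 or more, 444 were higher throughout, 132 lower throughout and 468 of both signs. Around Slc4a3, an anion exchanger gene, 6 of 8 were lower. Its exonic CpGs had -26.5 and 36.4 points, and pairs of intergenic CpGs 158927 and 203668 bp downstream had -44.0 and -42.1 points and -43.3 and -64.4 points. At Spock1, a testican gene, 4 were higher and 4 lower. Tmem163 had both signs inside its first intron, with 57.1 and 44.4 points at 1193 and 1220 bp and -30.9 points at 1733 bp. Of the 573 genes with a CpG within 2000 bp of the TSS 63 had 2 or more there, and 10 of these had both signs.

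The nearest TSS was often not that of the gene around the CpG. Of 2969 CpGs annotated to a transcript, 954 (32.1%) lay in a gene whose symbol differed from that of the gene with the nearest TSS. A gene that carries different symbols in the annotations used is counted here as another gene, so this number can be too high. Counting by the gene that contains the CpG gave 2212 genes, of which 503 had 2 or more CpGs. Of these 503 genes 213 were higher throughout, 67 lower throughout and 223 of both signs. By that count Cdh13, which encodes a cadherin without a cytoplasmic tail, had the most. Of its 9 intronic CpGs 8 were higher, between 26.3 and 42.9 points, and 1 in intron 5 had -26.3 points, while 6 of the 9 were listed under Hsbp1. Sdk1 had 6 intronic CpGs that were all higher, with 52.0 and 29.2 points in intron 1, 36.1 points in intron 2, 52.4 and 48.4 points in intron 4 and 91.1 points in intron 9. Gli2, the Hedgehog transcription factor, had 4 intronic CpGs with 26.4, 37.3, 46.6 and 29.4 points, of which 3 were listed under Mir6346. Of the other genes with 6 CpGs by this count, Mgat5, Ptpn14, Spock1 and Tmem163 had 3 higher and 3 lower each. Lrpprc had 5 higher and 1 lower, and Wwox had 4 higher and 2 lower. Agap1 and Camta1, with 8 CpGs each, had 6 higher and 2 lower, and Cit, with 7, had 5 higher and 2 lower.

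Pathways and gene families were counted from 24 lists by the nearest TSS, beside the 65.6% of the whole list. Counts within 2000 bp of a TSS are read against the share at that distance, where 470 of 647 CpGs were higher (72.6%). For pluripotency genes 12 CpGs were higher and 6 lower, at 10 of 30 genes, and none lay within 2000 bp of a TSS. The largest values were at Sall4 (55.1 points, -22908 bp) and Dppa4 (47.7 points, -412675 bp), and in an intron of Agap1 with Gbx2 as nearest gene (-43.0 points). Dppa3, an early germ cell gene, had -41.1 points at 38522 bp. Lifr, the LIF receptor, had 31.5 and 26.6 points in exon 22 and -27.3 and 29.9 points 19 bp apart in intron 14. For genes of the epiblast, the tissue that ESCs can enter next, all 6 CpGs were higher. Their nearest genes were T (67.7 points, 4325 bp), Foxd3 (52.7 points, -195272 bp), Fgf8 (38.9 points, 1373 bp) and Dnmt3b (31.5 points, 28730 bp). Gsc had 49.6 points at 25748 bp and a smaller gain 3 bp away, both in a B4A repeat. Only the Fgf8 CpG lay within 2000 bp of a TSS. With 6 CpGs the interval runs between 54.1 and 100%, and it contains the background.

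Genes of the germline and meiosis are held silent by methylation in many somatic cells. In Tet1 KO 9 of their CpGs were higher and 4 lower, and 5 of the 6 within 2000 bp were higher, beside the 72.6% at that distance. Sycp3, of the synaptonemal complex, had 46.5 points at 102 bp, Hormad2, a meiotic chromosome axis gene, 34.9 and 29.1 points at 25 and 42 bp, and Piwil2, of the piRNA pathway, 25.8 points at -311 bp. Syce2 had -29.4 points at 703 bp. Wdr20rt had 31.1 points at 392 bp and is uncertain, since it has a close copy.

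Imprinted genes had 9 CpGs higher and 4 lower, and 3 of each within 2000 bp. Apart from Magel2, Gnas had -42.3 points at -882 bp and Peg10 -30.3 points at 66 bp, while Kcnq1ot1 had 27.9 points at 1045 bp and Slc22a3 25.8 points at -230 bp. Of the methylation machinery 6 CpGs were higher and 2 lower. A CpG in exon 3 of Tet2 had 62.8 points. Gadd45g, of DNA demethylation and stress, had -39.5 and -37.2 points 2 bp apart at -2312 and -2314 bp, and 25.4 points at -3690 bp. Chromatin writers had 12 higher and 7 lower, with -39.2 points at Smarca4, the ATPase of BAF complexes.

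Among signalling pathways Wnt genes had 28 CpGs higher and 13 lower. Wnt9b, a ligand, had -71.8 points in intron 1. Ror2, a receptor, had 5 CpGs in intron 1, of which 4 were higher (51.8, 31.2, 27.7 and 44.3 points) and 1 had -58.0 points. Sfrp2, a secreted inhibitor, had 67.0 points at -3736 bp. TGF-beta, BMP and Nodal genes had 20 higher and 10 lower. The ligand Bmp7 had -70.0 points at -9975 bp, the receptor Acvr1 53.6 points and the Nodal inhibitor Lefty2 51.9 points at -14377 bp. FGF genes had 13 higher and 9 lower, with 60 and 56.5 points 10 bp apart upstream of Etv5, an Ets factor gene. An intergenic CpG 34411 bp from the TSS of the inhibitor Spry4 had -56.2 points, and the ligand Fgf9 had -41.6 points in intron 1. Notch genes had 6 higher and 3 lower, with 44 points in the receptor Notch3. The coactivator Maml3 had -56.2, 32.1 and 26.8 points in intron 1, and the target Hey1 had -48.3 and 28.5 points. Immune signalling had 30 higher and 15 lower, and 8 of 9 within 2000 bp were higher, beside 72.6% of all CpGs there.

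Developmental transcription factors had shares below that of the whole list, with intervals that contain it. Homeobox and Pax genes had 63 CpGs higher and 43 lower (59.4%, interval 49.5 to 68.9%), and within 2000 bp 4 higher and 6 lower. The lower ones there included Evx1 (-44.0 points at -753 bp), Gsx1 (-32.3 points), Lhx3 (-25.9 points at -267 bp) and Hlx (-32.5 and -27.8 points). The higher ones included Shox2 (36.2 points), Tshz2 (28.6 points) and En1 (26.4 points). A CpG with -81.8 points whose nearest gene was Barhl1 lay in an intron of Cfap77. Fox, Sox, Tbx and Gata genes had 29 higher and 25 lower (53.7%, interval 39.6 to 67.4%). The Hox clusters had 2 higher and 3 lower, among them Hoxb9 with 48.9 points and Hoxd9 with -34.0 points.

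Cadherins and protocadherins, adhesion proteins, had 24 higher and 6 lower (80.0%, interval 61.4 to 92.3%). Among the gene lists only that of the epiblast had a higher share. The interval for cadherins and protocadherins contains the share of the whole list, and the lists were ranked after their values were seen. Of the 9 within 2000 bp 8 were in protocadherin genes of close sequence, which are uncertain, and the other was at Cdh11 (32.9 points at -546 bp). Extracellular matrix genes had 37 higher and 20 lower, and 10 of 12 were higher within 2000 bp, where 72.6% of the list was. There Lox, which cross-links collagen and elastin, had 66.1 points in intron 3, Adamts5, a matrix protease, 48.6 and 28.1 points, Lamc3, a laminin chain, 41.8 points and Col1a2 32.2 points, against -40.8 points at Efemp2 and -26.5 points at Col5a2.

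Synapse genes had 19 higher and 7 lower, axon guidance 16 and 14, channels 32 and 16, contractile genes 27 and 16, lipid and energy metabolism 21 and 12, cell cycle and DNA repair 13 and 8, and Zfp zinc finger genes 42 and 22. E2f7, a repressor of the cell cycle, had 78.1 points in intron 2, and Rbl2, which encodes the pocket protein p130, had -62.2 points at -13252 bp. Mef2d, a muscle and neuronal factor, had 79.7 points in intron 1. MicroRNA genes were the nearest to 150 higher and 74 lower CpGs, and 22 of 27 within 2000 bp were higher, against the 72.6% there. Mir152 had 79.5 points at 13049 bp. Mirlet7i had 58.9, 27.8 and 25.4 points at 25197, 25214 and 25224 bp, and a further CpG had 57.4 points in the 3′ UTR of Ppm1h.

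**Figure D5:**
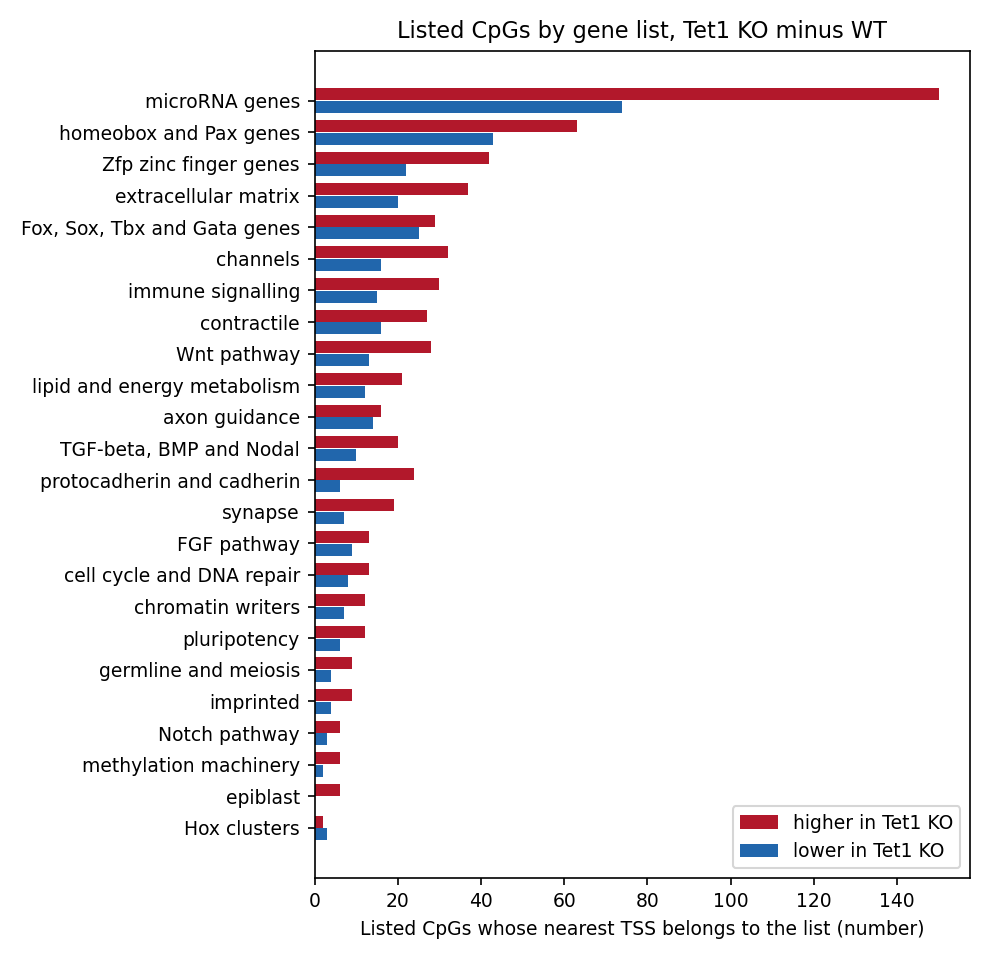
Number of listed CpGs (x axis) whose nearest TSS belongs to each of 24 gene lists (y axis), as red bars where higher and blue bars where lower in Tet1 KO. Higher CpGs outnumbered lower ones in each list shown except the Hox clusters, with 2 higher and 3 lower.

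Among the autosomes, the share of CpGs higher in Tet1 KO ran between 57.5% of 167 on chromosome 19 and 71.2% of 156 on chromosome 16. Chromosome 1 had the most listed CpGs, 599, with 70.6% higher. Chromosome X had 34, of which 22 were higher.

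Finally, the positions were set beside the other lists against WT, which share the WT clones, so that values of the same CpG are tied to each other. Of the 5571 CpGs 2994 (53.7%) were in no other list against WT, and 60.1% of these were higher in Tet1 KO (interval 58.3 to 61.9%). Absence from another list can also mean a difference short of its limits or too few reads. Coverage there is unknown, so these CpGs cannot be called particular to Tet1 KO. Of the 2577 that were also in another list 72.0% were higher (interval 70.2 to 73.7%). The Tet2 KO list held 1189 of the positions (21.3% of the Tet1 KO list and 17.3% of the Tet2 KO list), the DKO list 1068 (19.2% and 15.1%) and the TKO list 1210 (21.7% and 15.1%).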

How the data were processed

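RRBS libraries came from 12 ESC clones, 3 Tet1 KO, 2 Tet2 KO, 2 DKO, 2 TKO and 3 WT, grouped by sample title. The genotype field of DKO replicate 1 and of both TKO replicates named another knockout. Per the labels, trimming was done by Trim Galore 0.5 and alignment (mm9) by Bismark 0.19.1. The authors then used methylKit to compare genotypes and HOMER to annotate what they listed. The deposited lists used here hold 1 difference in percentage points per CpG, and levels were not used here. They are the authors' own comparison, which defines the list, and 0 columns of single clones were left unused. Depth per CpG is unknown.

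CpGs within 1000 bp were merged into regions with the sign of their mean. Shares have exact (Clopper-Pearson) 95% intervals (scipy). They were tested only on simulated signs drawn independently for each CpG. That simulation does not cover the shared signs of close CpGs or differences between clones. No test over clones was possible. Sequence was read from NCBIM37 with pysam, the guide from the study's oligo table. Host genes were named by transcript accession through RefSeq gene names (GRCm38.p6). Members, gene lists and the rule for named genes (largest differences near a TSS, at any distance and in each list, clusters, genes of both signs) were chosen with earlier results of these data known. A few genes that this rule names are not reported here.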

Additional observations from a re-analysis of the deposited data

How the results depend on the processing

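Of 42 values under other settings, 30 stayed within the interval of the value reported. A minimum of 30 points gave 67.9% of CpGs higher in Tet1 KO and one of 40 points 70.1%. At 40 points the share was 87.5% within 500 bp of a TSS, 78.9% at 500 to 2000 bp, 68.7% beyond 2000 bp, 81.3% in exons, 67.2% in introns, 66.8% in intergenic sequence and, on the other side of 50%, 45.5% of 44 Alu CpGs. A window of 1000 bp gave CpG ratios of 0.319 at gained and 0.310 at lost CpGs, by the length of the window, and leaving out repeats gave 0.456 at gained CpGs. The cause of the other shifts was not tested. Of 47 values for gene lists 40 stayed within the interval. At 40 points the share fell on the other side of 50% for Notch (33.3% of 3 CpGs), cell cycle and DNA repair (4 of 10) and the Hox clusters (100% of 1), and left its interval for axon guidance (80.0% of 10), Zfp genes (81.8% of 22), microRNA genes (73.8% of 65) and the methylation machinery (100% of 2). Leaving out repeats, sex chromosomes or unplaced sequence, or merging CpGs, moved no share of the list out of its interval. No paired analysis was possible because the lists hold 1 value per CpG over all clones, and for the same reason no clone could be left out. Read depth limits each value by an amount that is unknown here.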

Other observations

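Some CpGs had the same difference, to within 0.0001 points, in the Tet1 KO list and in another list against the same WT clones. This held for 162 of 1189 positions shared with Tet2 KO, 127 of 1068 shared with DKO and 130 of 1210 shared with TKO. Of the 162, 127 were higher and 35 lower than WT. An example is Lifr exon 22, with 26.6 points in Tet1 KO, in DKO and in TKO.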
